A study of Mus musculus with 11 samples.

Results

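Transcripts of the contractile apparatus of heart and skeletal muscle were examined in RNA from mouse spleen dendritic cells. The genes were Myl7, Myl2, Tnnt2, Myh7 and Myl10, which are 5 of the 417 rows of the deposited expression table and were found there by their symbols. Every row of that table differs 2-fold or more between the genotypes, up or down, with an unadjusted p below 0.05, so the members were selected on the authors' values for this contrast. All 5 were lower in C105F/+, in a table where 39.3% of rows were lower, and since the choice used it the genotype difference is given below as a description, without a test. The study compared mice heterozygous for C105F, a cysteine to phenylalanine change in the kidney protein uromodulin made with Cas9 in C57BL/6J embryos (the growth protocol numbers the residue differently), with wild type littermates, all sacrificed at 12 to 16 weeks. There were 5 C105F/+ libraries (replicates 2 to 6) and 6 wild type libraries (replicates 1 to 6). Every library came from collagenase-digested spleen, and dendritic cells were enriched by removing other cells with antibody-coated beads, a step that can leave some other cells behind. The edited gene, Umod, has no row, so the genotype labels were not checked against it. The labels name no injury, sex or batch for a mouse and do not state that each library is a separate animal, so the spread given is that between libraries.

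In striated muscle, myosin heavy chains form the thick filament and carry the motor, and each heavy chain binds regulatory and essential light chains at its neck. Calcium starts contraction through the troponin complex on the thin filament, in which troponin T ties the complex to tropomyosin. Myl7 encodes the regulatory light chain of the heart's atria, Myl2 that of the ventricles and of slow skeletal muscle, and Myh7 the beta heavy chain of slow skeletal muscle and of the fetal mouse ventricle. Tnnt2 encodes cardiac troponin T. Myl10 encodes another regulatory light chain, known from precursor lymphocytes as PLRLC. Dendritic cells move and take up particles with non-muscle myosins.

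The promoters of Myl7 and Tnnt2 are shown because Myl7 had no read in any C105F/+ library whereas Tnnt2 had reads in all of them. Each window runs from 250 bases before to 50 after a RefSeq start (GRCm38.p6), and all 5 genes matched the RefSeq table, with 10 windows in all. For Myl7 the window is chr11:5898733-5899032 (minus strand), and for Tnnt2 the most upstream of its windows is chr1:135836084-135836383 (plus strand). Capitals mark matches on either strand to 6 motifs. The muscle E-box was searched as CAGCTG and the MCAT element, bound by TEAD factors, as CATTCC. The GATA motif was AGATAA and also its variant TGATAA. The TATA box was TATAAA with the alternative spelling TATATA. The CArG box and the MEF2 site were the other two.
Myl7 promoter: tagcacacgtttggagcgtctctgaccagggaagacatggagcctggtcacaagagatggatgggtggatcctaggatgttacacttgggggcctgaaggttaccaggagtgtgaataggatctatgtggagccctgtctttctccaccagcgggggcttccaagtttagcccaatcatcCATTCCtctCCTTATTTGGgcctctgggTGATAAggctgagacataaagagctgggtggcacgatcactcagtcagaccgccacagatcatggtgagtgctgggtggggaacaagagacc
Tnnt2 promoter: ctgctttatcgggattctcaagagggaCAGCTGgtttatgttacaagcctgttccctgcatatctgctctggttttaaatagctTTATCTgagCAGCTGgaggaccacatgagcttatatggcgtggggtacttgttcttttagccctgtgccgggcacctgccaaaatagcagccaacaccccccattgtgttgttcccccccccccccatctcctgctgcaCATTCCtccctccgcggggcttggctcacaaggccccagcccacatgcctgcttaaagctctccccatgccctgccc
In the Myl7 window an MCAT element began 70 bases, a CArG box 61 bases and a GATA motif 42 bases before the start. The MCAT element and the CArG box did not overlap. The CArG box, the binding sequence of serum response factor, is held by 1.63% of the 32851 mouse windows of this length, and among the members only by Myl7. The MCAT element is held by 14.7% of all windows and by 3 of the 10 member windows, of Myl7, Tnnt2 and Myh7. A GATA motif is held by 18.6% of all windows and by 4 of the 10, of Myl7, Myl2, Tnnt2 and Myl10. The E-box is held by 16.3% and by 3 of the 10, of Myl2 and Tnnt2. The TATA box is held by 17.1% and by 2 of the 10, of Myl2 and Myh7. The MEF2 site is held by 3.19% of windows and was in none of the 10. Both Myl2 windows lie upstream of the GENCODE start of the gene given below, so its matches may not be in the promoter used. These motifs were searched after the values were known, and a match describes letters, not binding.

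The members differ in how far their reads can be told from those of related genes. Myl7 (Entrez 17898, chromosome 11, 5896637 to 5898782, mm10 by GENCODE M21), Myl2 (chromosome 5, 122100951 to 122113472) and Myl10 (chromosome 5, 136693146 to 136701094) encode short light chains, with coding sequences of at most 525 bases. Over aligned bases Myl7 and Myl2 were 64.5% identical, Myl7 and Myl10 69.5%, and Myl2 and Myl10 73.9%. Their longest shared runs were 16, 14 and 17 bases, and none shared a window of 50 bases. Tnnt2 (chromosome 1, 135836354 to 135852260) shared no such window with Tnnt1 or Tnnt3. Myh7 (chromosome 14, 54970684 to 54994626) was 91.8% identical to its neighbour Myh6, the alpha heavy chain of the adult mouse heart, and 23.9% of its 5756 coding windows of 50 bases occur in Myh6 too. The longest run they share, shown because a read from it fits both genes, spans coding bases 4240 to 4484 of Myh7 (minus strand), with capitals marking the shared bases.
Myh7 and Myh6 shared run: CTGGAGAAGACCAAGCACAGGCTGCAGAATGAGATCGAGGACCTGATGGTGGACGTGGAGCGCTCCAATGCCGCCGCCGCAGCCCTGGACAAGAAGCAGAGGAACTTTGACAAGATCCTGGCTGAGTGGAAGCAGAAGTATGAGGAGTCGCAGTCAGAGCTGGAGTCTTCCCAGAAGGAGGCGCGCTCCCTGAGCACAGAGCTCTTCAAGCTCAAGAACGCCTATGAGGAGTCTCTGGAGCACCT
The value of Myh7 is therefore uncertain with respect to Myh6, which has no row. Myh7 also overlaps genes on the opposite strand, among them Mhrt, a cardiac antisense RNA, and Myl2 overlaps Ccdc63 on the opposite strand. The libraries were directional, but no source used here states whether the counting used strand.

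Depth is known only in relative terms, because total counts were not used here. Wild type 1 was the shallowest library, with a size factor of 0.615 behind the authors' means, and C105F/+ 2 the deepest, with 1.98. Values below are scaled counts, the reads divided by these factors. The members were sparse, with 129 reads in all C105F/+ libraries together and 883 in wild type. Intervals and limits cover counting error only. Wild type 4 stood apart over the whole table. It was the highest wild type library in 33.6% of all 417 rows. By Dixon's gap criterion it lay far above the other wild type libraries in 84 rows. Among the 164 rows lower in C105F/+ it was highest in 45.1% and far above in 54. There wild type 1 lay far above in 18 and the other wild type libraries in 0 to 3 each. Among the 253 rows higher in C105F/+ wild type 4 was far above in 30. It was highest in 26.1% of these, close to wild type 5 with 24.5%. The genotype differences below are therefore also given without wild type 4.

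Every wild type library carried reads of 4 of the 5 genes, and which gene was missing differed between libraries. C105F/+ 2, the deepest library, also carried 4, and the other C105F/+ libraries carried Tnnt2 and Myh7 alone. Summed over the 5 genes, FPKM, which corrects for gene length, was 0.0499 to 0.301 in C105F/+ and 0.922 to 8.49 in wild type (0.922 to 1.79 without wild type 4). The groups did not overlap in this sum, a direction that the choice of members fixes. In these bulk libraries fewer cells carrying a transcript and less of it per cell cannot be told apart.

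**Figure D1:**
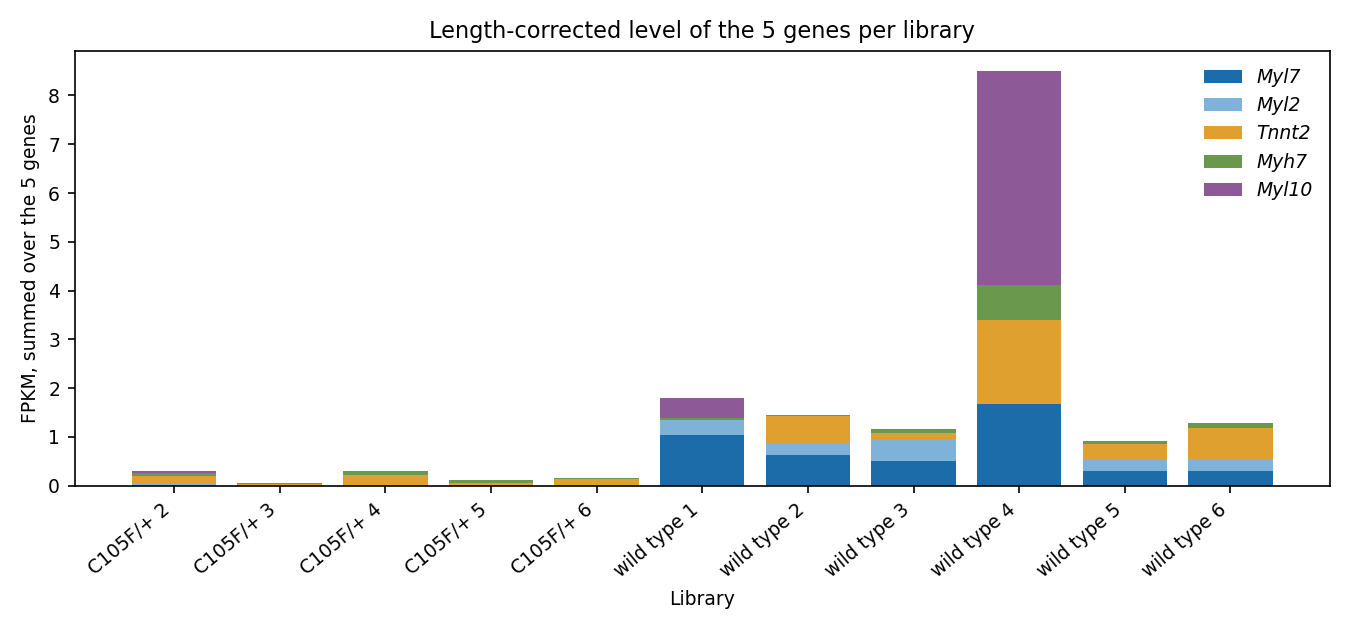
Stacked bars give the FPKM of the 5 genes in each library (y axis, FPKM; x axis, library; no error bars because each bar is 1 library). The C105F/+ bars reach at most 0.301, the wild type bars start at 0.922, and wild type 4 reaches 8.49 with Myl10 as its largest part.

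Myl7 was the member that separated the genotypes. No C105F/+ library had a read of it. The wild type libraries 1 to 6 had 25, 23, 16, 48, 12 and 11 reads, or 40.7, 22.1, 18.4, 50.3, 10.1 and 9.86 scaled counts. Wild type 4 and 1 were the highest. Every C105F/+ library lay below every wild type library, a pattern met by 3.36% of the table's rows (14 rows). The wild type mean was 25.2 ± 16.7 scaled counts (SD, n = 6). At 3 reads over the whole C105F/+ group as the limit behind a count of 0, the wild type mean was 48.0 times that limit. Without wild type 4 it was 38.5 times the limit. These ratios take the wild type mean as exact. With counting error on both sides, the exact interval of the pooled rate ratio, wild type over C105F/+, began at 35.7. Without wild type 4 it began at 27.3. None of these values covers the spread between libraries. At the lowest wild type level, 8.15 to 19.5 reads would have been counted in each C105F/+ library, where 0 were counted. Rows with no read in any C105F/+ library made up 5.76% of the table (24 rows). In the authors' deposited table Myl7 has the second smallest unadjusted p, 5.18e-10, and a fold of 147.6 that depends on how the 0 values were fitted. The authors' log2 normalized values, which pull low counts towards a common level, were 3.24 to 3.25 in C105F/+ and 3.46 to 4.00 in wild type.

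Myl2, the ventricular counterpart of Myl7, was nearly undetected in C105F/+ as well. C105F/+ 2 had 4 reads (2.02 scaled counts, exact Poisson 95% interval 0.551 to 5.17), and the other 4 had none, with limits of 2.85 to 3.63 scaled counts. The wild type libraries 1 to 6 had 13.0, 10.6, 17.3, 0, 7.58 and 8.07 scaled counts. Wild type 4, which was highest for the other 4 genes, had no read of Myl2 (limit 3.14 scaled counts) and made the groups overlap. The means were 0.404 ± 0.904 (SD, n = 5) and 9.41 ± 5.82 (SD, n = 6). The pooled rate was 12.8 times higher in wild type (exact 95% interval 4.73 to 48.9, counting error only). Without wild type 4 the groups did not overlap, and that ratio was 15.4 (5.66 to 58.6).

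Tnnt2 was carried by all C105F/+ libraries and by wild type 2 to 6. C105F/+ 2 to 6 had 8.59, 2.85, 14.2, 3.21 and 8.47 scaled counts. Wild type 1 to 6 had 0, 40.3, 12.7, 109, 21.9 and 42.1. The highest wild type libraries were 4, 6 and 2, and the groups overlapped, since wild type 3 lay below C105F/+ 4. Wild type 1, the shallowest library, had no read, and its limit of 4.88 scaled counts does not place it below C105F/+ 3 and 5. The means of 7.45 ± 4.65 (SD, n = 5) and 37.7 ± 38.5 (SD, n = 6) gave a 5.05-fold lower level in C105F/+, and 3.14-fold without wild type 4. The difference of these means was smaller than the wild type SD.

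Myh7 was the member found in all 11 libraries. C105F/+ 2 to 6 had 14.1, 4.74, 25.05, 19.3 and 6.05 scaled counts. Wild type 1 to 6 had 19.5, 5.76, 31.1, 219, 22.8 and 34.1. Apart from wild type 4, which was 6.42 times the next wild type library, the ranges of the groups largely covered each other. Wild type 4 held 65.5% of the wild type reads. The means were 13.9 ± 8.64 (SD, n = 5) and 55.3 ± 80.7 (SD, n = 6), a 4.00-fold lower level in C105F/+ that was 1.63-fold without wild type 4 (22.6 ± 11.1, SD, n = 5).

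Myl10 reads came almost wholly from wild type 4. That library had 136 reads (142 scaled counts, exact Poisson 95% interval 119 to 168), wild type 1 had 11 (17.9 scaled counts) and C105F/+ 2 had 3 (1.52). The other 8 libraries had none, with limits of 2.53 to 3.63 scaled counts. Wild type 4 held 92.5% of the wild type reads, and wild type 2, 3, 5 and 6 could not be told from the C105F/+ libraries. The pooled rate was 48.4 times higher in wild type (exact 95% interval 16.2 to 237.4, counting error only). Without wild type 4 it was 4.34 times higher (1.15 to 24.2), where the 11 wild type reads left all came from wild type 1. Neither interval covers the spread between libraries.

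**Figure D2:**
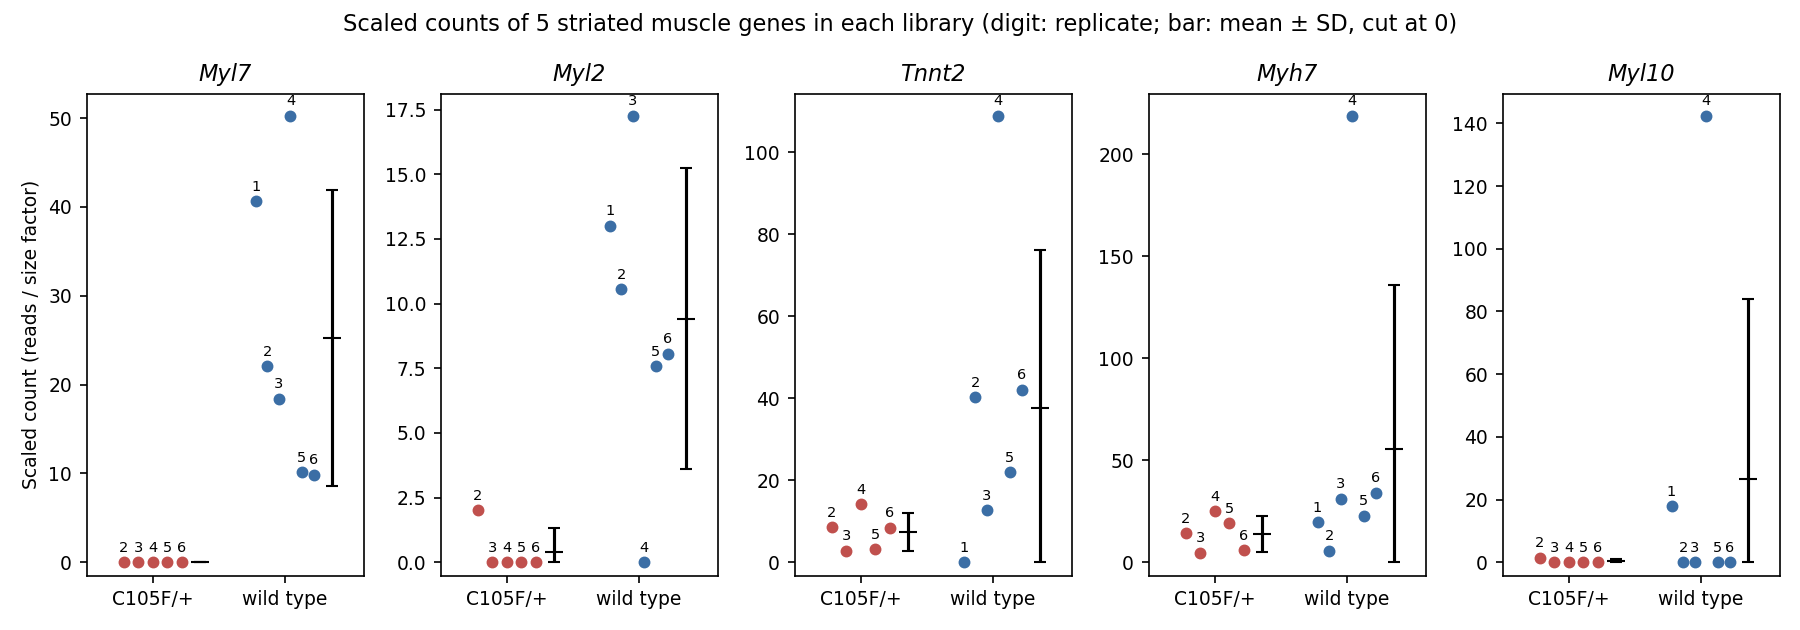
Each point is the scaled count (reads divided by the size factor, y axis, linear, a scale of its own for each gene) of 1 library, numbered by replicate, in C105F/+ and wild type, with mean ± SD at the side (SD bars are stopped at 0). Myl7 is at 0 in all C105F/+ libraries and between 9.86 and 50.3 in wild type, while Myh7 and Myl10 are set apart by wild type 4, at 219 and 142.

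Per length, the order of the genes differed between the genotypes. Mean FPKM in wild type was 0.797 ± 1.76 for Myl10, 0.746 ± 0.529 for Myl7, 0.567 ± 0.618 for Tnnt2, 0.237 ± 0.143 for Myl2 and 0.173 ± 0.266 for Myh7 (SD, n = 6). No neighbours in this order differed by more than the larger of their SDs, and the place of Myl10 rests on wild type 4, without which its mean FPKM was 0.0791 ± 0.177 (SD, n = 5). In C105F/+ the order was Tnnt2 with 0.117 ± 0.0753, Myh7 with 0.0450 ± 0.0296, Myl2 with 0.0120 ± 0.0269 and Myl10 with 0.00956 ± 0.0214 (SD, n = 5), and Myl7 was listed at 0. The gap between Myh7 and Myl2 was larger than either SD, and the other gaps were within the larger SD. Within single libraries Myl7 was the leading member in wild type 1, 2 and 3, Tnnt2 in wild type 5 and 6 and in C105F/+ 2, 3, 4 and 6, Myh7 in C105F/+ 5 and Myl10 in wild type 4. In wild type 4 Myl10 had 4.38 FPKM, more than Myl7 (1.67), Tnnt2 (1.72) and Myh7 (0.712) of the same library.

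The 5 genes did not share a single pattern across libraries. On log2(scaled count + 1), Pearson's r between members ran from -0.10 (Myl2 and Myl10) to 0.69 (Myh7 and Myl10) over 11 libraries, and from -0.82 (Myl2 and Myh7) to 0.87 (Myl7 and Myl10) over the 6 wild type libraries. Without wild type 4 they ran from -0.70 (Tnnt2 and Myl10) to 0.95 (Myl7 and Myl2) over the other 10 libraries, and that of Myh7 and Myl10 was 0.11. These are descriptions of sparse counts whose points share depth. The choice of genes that are lower in C105F/+ raises the values over 11 and 10 libraries, which span both genotypes. The mean difference on this log2 scale, C105F/+ minus wild type, was -4.46 for Myl7, -2.65 for Myl2, -1.42 for Tnnt2, -1.27 for Myh7 and -1.63 for Myl10. Leaving out wild type 4 moved it to -4.22, -3.24, -0.93, -0.70 and -0.58, so that it became larger for Myl2 and smaller for the other 4. For Tnnt2 wild type 1, the library without a read, pulled the other way, and the difference was -2.29 without it.

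**Figure D3:**
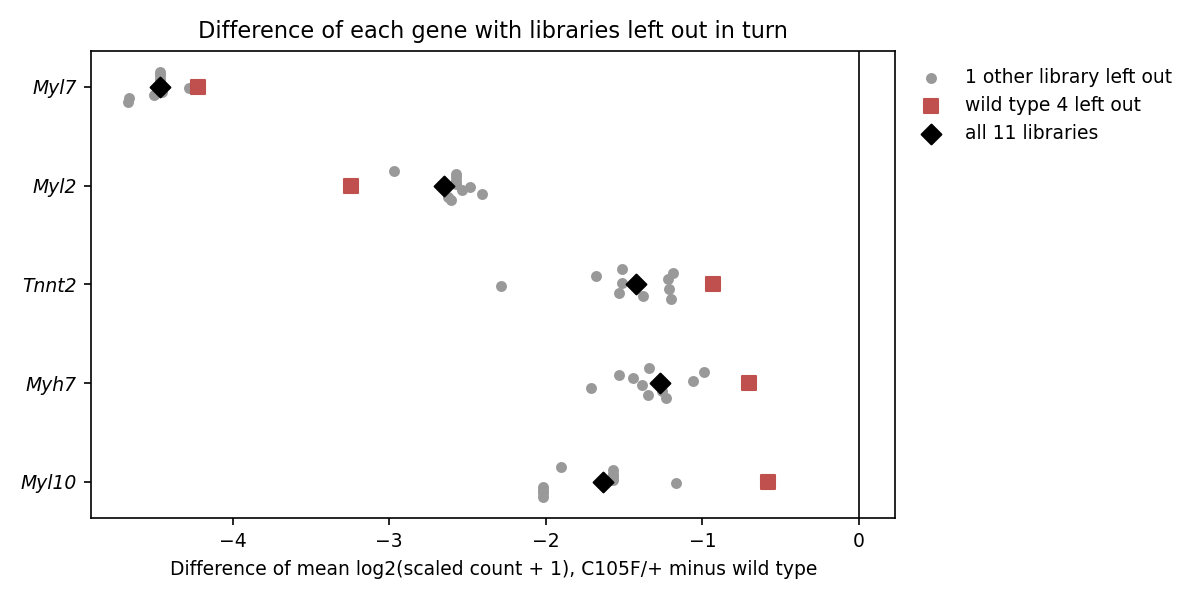
The difference of mean log2(scaled count + 1), C105F/+ minus wild type (x axis), is drawn for each gene with all 11 libraries (diamond), without wild type 4 (square) and without each other library (grey points). All values lie below 0, and without wild type 4 Tnnt2, Myh7 and Myl10 move to -0.93, -0.70 and -0.58.

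An adjusted p below 0.05 stands beside 26.6% of rows in the authors' deposited table, and 0 of the 5 genes do. Tnnt2 is listed with 0.108 and Myh7 with 0.15, and the table gives no adjusted p for Myl7, Myl2 and Myl10, as for 122 of its rows. The authors' unadjusted p was 0.00434 for Myl2, 0.0085 for Tnnt2, 0.0167 for Myh7 and 0.0231 for Myl10, the last of which lay closest to the table's limit of 0.05. Their mean scaled counts, 5.32 to 36.5, were low for the table, whose median row had 66.2.

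Other genes of the sarcomere, such as the actins, titin, troponin I and C and Myh6, were not analysed here. None of 10 smooth muscle and 7 non-muscle myosin genes had a row.

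Rows of the marker lists were lower in wild type 4 than in the other wild type libraries, whereas some other immune rows, named after their values were seen, were higher there. Of 13 dendritic cell markers only Itgae had a row, so the labelled cell type could not be checked, and wild type 4 had 99.5 scaled counts of it against at least 460.01 in the other wild type libraries. Of 8 early lymphoid markers 1 had a row, Dntt, an enzyme of precursor lymphocytes, with 332 to 1151 in C105F/+ and 51.3 to 557 in wild type. It was lowest in wild type 4. Some rows of B lineage genes outside that list lay the other way in this library. Cd79a had 2041 scaled counts against a median of 308 in the other wild type libraries, Ebf1 299 against 44.7 and Vpreb3 66.0 against 27.9. Pou2af1 (1523 against 205), Mzb1 (1271 against 693) and Ms4a1 (841 against 564) were higher there too. Tnfrsf17 (8.38 against 69.9) and, by a smaller margin, Jchain (14972 against 17276) were lower in wild type 4. These rows are examples, and B lineage rows were not counted by direction. Mpo, a granule enzyme of myeloid precursors and neutrophils, had 6475 against a median of 1353. The myeloid rows Cxcr2 (205 against 34.1), Csf3r (793 against 432) and Prg2 (1104 against 293) were higher there too. Retnlg (14.7 against 27.0), Trem1 (168 against 202), Cd300e (239 against 800) and Ace (250 against 2188) were lower in wild type 4. Myeloid rows were likewise not counted by direction. The 2 stromal and endothelial rows of 9 markers, Cdh5 and Flt1, summed to 569 to 1690 in C105F/+ and 128 to 793 in wild type, and the 2 erythroid rows of 7, Alas2 and Sptb, to 378 to 4085 and 184 to 1283, both lowest in wild type 4. The part of any of these cells in the muscle transcripts was not tested.

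**Figure D4:**
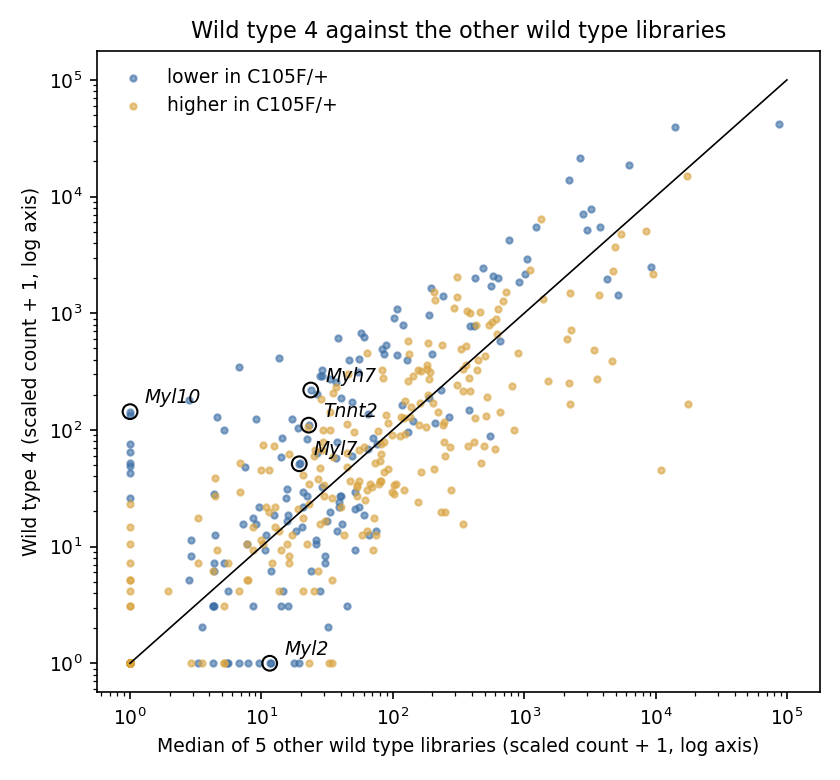
Each point is 1 of the 417 rows, with the median scaled count + 1 of the 5 other wild type libraries (x axis, log) against wild type 4 (y axis, log), coloured by the direction of the row in C105F/+, and the line marks equal values. Myl7, Tnnt2, Myh7 and Myl10 (circled) lie above the line and Myl2 lies at the bottom, where wild type 4 had no read.

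Among the other rows, those most like a member across the 11 libraries differed from gene to gene. All rows compared were selected on the same contrast, and every row named here was lower in C105F/+. That shared step between the genotypes raises r. By Pearson's r of log2(scaled count + 1) over 11 libraries, a description without a test, Myl7 was most like the predicted gene Gm11110 (0.92), the melanocortin receptor Mc1r (0.91) and the interferon-induced Isg15 (0.90). Gm11110 had 42.4 to 81.4 scaled counts in C105F/+ and 75.8 to 163 in wild type. Mc1r was sparse, with 0 in every C105F/+ library and 2.09 to 6.90 in wild type. Myl2 was most like A430078I02Rik (0.94), the kinase Mapk10 (0.93) and C2cd4b (0.91), each with no read in wild type 4. Tnnt2 was most like Slc35g2 (0.76), Cdr2l (0.75) and the metalloproteinase inhibitor Timp1 (0.70). Slc35g2 was sparse too, with 0 in every C105F/+ library and 0 to 13.4 in wild type. The rows most like Myh7 were Ubd (0.89), 4930599N23Rik (0.88) and C1qtnf6 (0.84), and those most like Myl10 were C1qtnf6 (0.93), Nqo1 (0.92) and Tnfrsf4 (0.92), all 5 highest in wild type 4. Without that library the r of C1qtnf6 with Myl10 was 0.76 and that of Ubd with Myh7 0.70. The summed members were most like 4930599N23Rik (0.91), Tarm1 (0.88), C1qtnf6 (0.86), Dpp10 (0.85) and Fgd5 (0.85). Without wild type 4 these were 0.83, 0.74, 0.72, 0.74 and 0.75.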

How the data were processed

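RNA from spleen dendritic cells was sequenced in 5 C105F/+ and 6 wild type libraries from oligo(dT)-selected RNA. The submitters' processing notes list HISAT2 2.1.0 and Bowtie2 2.3.4.1 among aligners, StringTie 2.1.3b, DESeq2, FastQC 0.11.7 and Trimmomatic 0.38, with mm10 as the build and no settings. Per the file headers, the deposited read counts are raw. FPKM and log2 normalized values per library were made by the authors, but no source used here names the transformation to log2. The deposited signed fold is a score column, as are its standard error and statistic. The authors' mean over libraries is a signal column, scaled by size factors. Both p-value columns, unadjusted and adjusted, were deposited by the authors.

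The size factors were recovered by solving the authors' means for them (largest relative error 4.66e-15), a step tested on simulated data. Scaled counts are reads divided by these factors, and log2 values use a pseudocount of 1. No genotype test was run, because the members and lists were chosen with earlier results of these data known and the rows were selected on the same contrast. The members, the 3 rows with the highest r for each member and the 5 for their sum are named; the marker rows follow the marker lists. The result of the list of other striated muscle genes is not reported here. Python 3.11.15, pandas 2.3.3, scipy 1.17.1 and Biopython 1.88 were used. Promoters come from RefSeq and coding sequences from GENCODE M21, both on GRCm38.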

Additional observations from a re-analysis of the deposited data

Results flagged for a closer look

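Single libraries met a gap criterion within their group for some members. Wild type 4 was far above the other wild type libraries for Myh7 (219 scaled counts, next 34.1), for Myl10 (142, next 17.9) and for the members summed (520.5, next 94.1). C105F/+ 2, the deepest library, held the only C105F/+ reads of Myl2 (2.02 scaled counts) and of Myl10 (1.52), against 0 in the other 4. The limits behind those 0 values, 2.85 to 3.63 scaled counts, are above both, so these counts do not place C105F/+ 2 apart, and with 4 values at 0 any read meets the criterion. Tnnt2 in wild type 4 (109 scaled counts, next 42.1) came short of the criterion, and Myl7 (50.3, next 40.7) was well within it. For normally distributed values chance alone marks about 1 in 20 groups this way, and 12 groups were examined. These counts are sparse with many 0 values, so that rate does not carry over to them. Over all 417 rows, wild type 4 was far above the other wild type libraries in 20.1%.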

How the results depend on the processing

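The choice of members largely fixes the direction of their genotype differences. The difference of each member kept its direction under every scaling and pseudocount tried and with each library left out. With group medians it did so for 4 members, and for Myl10 it was 0 because both medians are 0. With libraries left out in turn it ran from -4.67 to -4.22 for Myl7, -3.24 to -2.41 for Myl2, -2.29 to -0.93 for Tnnt2, -1.71 to -0.70 for Myh7 and -2.01 to -0.58 for Myl10. It moved by more than the spread between libraries in these cases. For Myl7 it was -5.42 with a pseudocount of 0.5, -2.41 with a pseudocount of 5, -0.75 on FPKM and -0.43 on the authors' log2 normalized values. For Myl2 it was -1.30 with a pseudocount of 5, -0.28 on FPKM and -0.15 on the authors' log2 values. FPKM of these genes are mostly below 1, so that a pseudocount of 1 shrinks them. For Myl10 the ratio of group means gave -4.41, because wild type 4 sets the wild type mean. At 10 reads or more, C105F/+ libraries carried Tnnt2 in 2 and Myh7 in 3 cases, and Myl2 and Myl10 in 0, and wild type libraries carried Myl2 in 2 rather than 5. Of the table's rows 224 had an unadjusted p under 0.01, against 111 with an adjusted p under 0.05, and of the members 3 (Myl7, Myl2 and Tnnt2) against 0. No paired analysis was possible because the results come from no test to which a block could be added. The mean difference of same-numbered pairs equals that without wild type 1. Counts of a few reads and the unknown total depth limit every value, and the strand setting of the counting is not known.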
